A study of Mus musculus with 18 samples.

Results

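Expression of 9 genes of stem-like and memory T cells was examined in CD3+ tumor-infiltrating T cells: Tcf7, Lef1, Ccr7, Klf2, S1pr1, Il7r, Slamf6, Bach2 and Satb1. They were chosen by symbol from the 37236 genes of the deposited matrix, and all 9 were among the 11992 genes that reached a mean of at least 10 normalized counts and were tested. The T cells came from B16-OVA tumors, a mouse melanoma line that expresses ovalbumin as a model antigen, grown s.c. from 500000 injected cells in C57BL/6 mice and taken at d14. There were 4 groups: Nr2f6+/+ mice with the control antibody IgG2b (n = 3), Nr2f6+/+ mice with anti-PD-L1 (clone 10F.9G2, n = 6), Nr2f6-/- mice with IgG2b (n = 3) and Nr2f6-/- mice with anti-PD-L1 (n = 6). Each antibody was given i.p. at 0.5 mg from d3 on, and the study used mice of 8 to 12 weeks for its tumor experiments. The Nr2f6 gene is missing from all cells of the knockout mice, not from T cells alone, so that host and T cell effects of the genotype cannot be told apart. The cells were enriched with CD4 and CD8 beads, pooled and sorted for CD3. Each value is therefore an average over CD4+ and CD8+ T cells and any other cells present, whose markers are described below. In such an average, fewer cells of a type and less RNA per cell cannot be told apart.

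T cells that have not yet become terminal effector or exhausted cells keep a shared gene program. TCF-1, the product of Tcf7, and its relative LEF-1 are DNA-binding factors at the end of the Wnt pathway that keep up self-renewal, and in tumors TCF-1+ T cells are known as the pool that expands under blockade of the PD-1/PD-L1 axis. Ccr7, Klf2 and S1pr1 serve recirculation through lymphoid organs, Il7r serves survival, Slamf6 is a surface marker of progenitor exhausted cells, and Bach2 and Satb1 encode nuclear proteins that restrain or organize the effector program. NR2F6 is an orphan nuclear receptor that represses cytokine genes in T cells.

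Promoter windows of 250 bases before to 50 after a transcription start were available from RefSeq (GRCm38.p6) for 7 of the 9 genes, at 15 starts. Those of Tcf7 and Klf2 are shown because the calls described here turn on these genes. Both Tcf7 windows lie inside the gene (52246527 to 52283383), so its outermost 5′ end, at 52283383 on the minus strand, is in neither. In the next lines, capitals mark matches to 4 motifs searched on both strands: CTTTGAT of TCF-1 and LEF-1, AGGTCA of nuclear receptors, GTAAACA of FOXO factors and CACACCC of KLF factors.
Tcf7, minus strand, chr11:52282965-52283264: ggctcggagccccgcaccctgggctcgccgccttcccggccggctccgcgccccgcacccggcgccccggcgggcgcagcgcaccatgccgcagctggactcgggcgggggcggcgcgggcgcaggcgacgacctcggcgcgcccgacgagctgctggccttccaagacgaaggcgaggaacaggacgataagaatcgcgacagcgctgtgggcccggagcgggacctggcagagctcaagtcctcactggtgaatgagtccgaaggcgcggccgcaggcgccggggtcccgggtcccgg
Tcf7, minus strand, chr11:52282546-52282845: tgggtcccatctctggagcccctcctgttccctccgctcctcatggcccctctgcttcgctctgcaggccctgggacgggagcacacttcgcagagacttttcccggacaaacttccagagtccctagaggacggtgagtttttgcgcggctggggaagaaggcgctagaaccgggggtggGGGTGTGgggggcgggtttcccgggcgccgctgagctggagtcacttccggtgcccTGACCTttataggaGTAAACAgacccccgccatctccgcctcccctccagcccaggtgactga
Klf2, plus strand, chr8:72318812-72319111: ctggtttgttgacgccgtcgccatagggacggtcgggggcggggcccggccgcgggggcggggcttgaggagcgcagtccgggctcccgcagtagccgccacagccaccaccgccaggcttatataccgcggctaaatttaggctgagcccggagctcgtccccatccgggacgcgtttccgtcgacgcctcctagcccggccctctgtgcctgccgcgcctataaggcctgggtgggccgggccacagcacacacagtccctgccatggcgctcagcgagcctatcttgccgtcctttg
The second Tcf7 window held CACACCC as its reverse complement at bases 182 to 188, AGGTCA as its reverse complement at bases 238 to 243 and GTAAACA at bases 252 to 258, counted from 1 at the 5′ end of the window. None of the 3 matches overlapped. The other Tcf7 window and that of Klf2 held none of the 4 motifs in these letters. Of the remaining windows of the 9 genes, 2 of Satb1 held a match, 1 to the KLF and 1 to the nuclear receptor motif. The TCF-1 and LEF-1 motif was in 0 of the 15 windows and in 3.73% of all 32851 windows of this length. The corresponding shares of all windows were 16.3% for the nuclear receptor, 3.65% for the FOXO and 7.95% for the KLF motif. These matches describe the sequence only.

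Depth was similar between the groups, with 12473391 to 18609482 reads counted on genes per sample. The smallest level taken as detectable, 3 reads, was 2.46 to 3.64 normalized counts, and all values of the 9 genes lay above it. Nr2f6 had 20.2 to 201 normalized counts in the 9 Nr2f6+/+ samples and 0 reads in the 9 Nr2f6-/- samples. Cd3d, Cd3e, Trac, Cd4 and Cd8a were detected in all 18 samples. By their library numbers the samples fall into 2 library sets, a first set with replicates 1 to 3 of each group and another with the remaining 6 anti-PD-L1 samples, numbered 4 to 6 in both genotypes. Treatments were therefore also compared within the first set. Between the sets, within the anti-PD-L1 samples, the smallest unadjusted p among the 9 genes was 0.143, for Il7r and for Klf2 (limma). The log2 differences, second minus first set, were 0.53 for Il7r and -0.84 for Klf2, the largest of the 9 in size.

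PD-L1 blockade was compared with IgG2b first in Nr2f6+/+ mice, to ask how the stem-like program of TILs stood under treatment. Tcf7 was lower, and all 9 genes had a lower fitted level with anti-PD-L1. The median of their log2 differences was -1.04, against -0.10 over all genes tested. Of the 9 genes, 1 passed the threshold of an adjusted p of 0.05 (limma), Tcf7, beside 29 of 11992 genes (0.242%) in this comparison.

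Tcf7 (chromosome 11 of GRCm38.p6, 52246527 to 52283383) had 3734, 5137 and 4134 normalized counts in the Nr2f6+/+ IgG2b samples. With anti-PD-L1, the Nr2f6+/+ samples had 1046 to 2350 with a median of 1653. The groups did not overlap, and the lowest IgG2b sample was above the highest anti-PD-L1 sample. The mean fell from 4335 ± 723 (SD, n = 3) to 1672 ± 621 (SD, n = 6). The log2 difference was -1.45 (SE 0.261, 95% interval -1.98 to -0.92, adjusted p = 0.00912, limma), or 2.73-fold lower. Within the first library set it was -1.67 (adjusted p = 0.0113). The call was lost when only these 2 groups were fitted (adjusted p = 0.101), without Nr2f6+/+ IgG2b replicate 2 (-1.32, adjusted p = 0.122) and without replicate 3 of that group (-1.48, adjusted p = 0.0786).

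Ccr7, the chemokine receptor that guides T cells into lymph nodes (chromosome 11, 99144199 to 99155077), had 715, 1265 and 1352 normalized counts with IgG2b and 108 to 685 with anti-PD-L1 (median 489) in Nr2f6+/+ mice. Klf2, a zinc finger factor that switches on S1pr1 (chromosome 8, 72319062 to 72321654), had 899, 1334 and 1386 with IgG2b and 53.2 to 838 with anti-PD-L1 (median 505). For both genes the anti-PD-L1 samples lay under all IgG2b samples, as they did for Tcf7. Such a complete separation downwards was seen in 3 of the 9 genes and in 386 of the 11992 tested (3.22%). The log2 differences were -1.45 for Ccr7 (SE 0.480, adjusted p = 0.363) and -1.62 for Klf2 (SE 0.571, adjusted p = 0.436), so that neither passed the threshold in Nr2f6+/+ mice alone.

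S1pr1, the receptor for sphingosine 1-phosphate that lets T cells leave tissue (chromosome 3, 115710433 to 115715055), had 1161, 2764 and 1804 normalized counts with IgG2b and 539 to 1235 with anti-PD-L1 (median 932) in Nr2f6+/+ mice. Il7r, which encodes the IL-7 receptor alpha chain (chromosome 15, 9506159 to 9529941), had 2044, 1862 and 1078 against 290 to 1420 (median 808). In both genes 1 IgG2b sample lay inside the range of the anti-PD-L1 samples. The log2 differences of -1.04 (S1pr1, SE 0.372, adjusted p = 0.455) and -1.14 (Il7r, SE 0.394, adjusted p = 0.412) did not pass the threshold. Lef1, Slamf6, Bach2 and Satb1 differed by -0.67 to -0.33, with adjusted p-values of 0.869 to 0.934, and their groups overlapped.

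**Figure D1:**
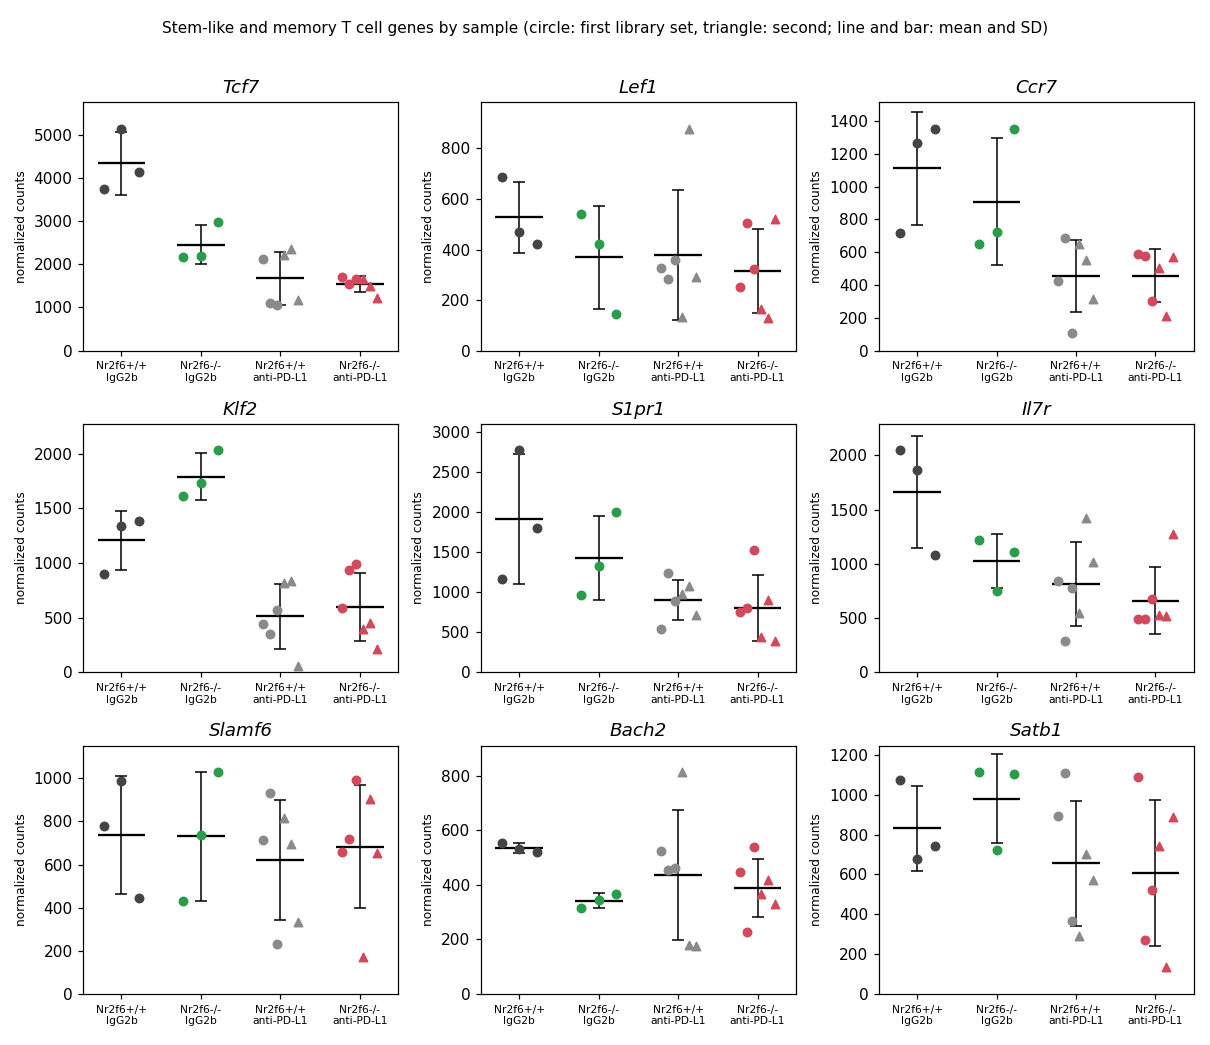
Normalized counts (vertical axis, linear from 0) of each of the 9 genes in each of the 18 samples by group; points are samples, circles the first and triangles the second library set, and lines with bars the mean and SD. Tcf7, Ccr7 and Klf2 of each genotype lie lower in all anti-PD-L1 samples than in all IgG2b samples, and Slamf6 overlaps widely.

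In Nr2f6-/- mice, 0 of the 9 genes passed the threshold with anti-PD-L1 against IgG2b, while 39 of 11992 genes did (0.325%). The unadjusted p was under 0.05 for 4 of the 9 genes and for 1163 of all genes in limma, and edgeR and DESeq2 on the recovered reads also called 0 of the 9. Of the 9 genes 8 had a lower fitted level and Bach2 differed by 0.14, and the median log2 difference was -0.70, against -0.04 over all genes.

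Klf2 had 1609, 1730 and 2030 normalized counts in the Nr2f6-/- IgG2b samples and 217 to 993 with anti-PD-L1 (median 518). Tcf7 had 2173, 2200 and 2977 against 1214 to 1694 (median 1589). Ccr7 had 649, 724 and 1352 against 212 to 588 (median 534). The same 3 genes as in Nr2f6+/+ mice thus separated completely, beside 378 of the 11992 genes tested (3.15%). The log2 differences were -1.76 for Klf2 (SE 0.571, adjusted p = 0.250), -0.66 for Tcf7 (SE 0.261, adjusted p = 0.366) and -1.0 for Ccr7 (SE 0.480, adjusted p = 0.501). Satb1 (-0.97), S1pr1 (-0.93) and Il7r (-0.70) had lower fitted levels with overlapping samples and adjusted p-values of 0.382 to 0.595, and Lef1 and Slamf6 differed by -0.21 and -0.19.

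Averaged over both genotypes, a contrast added after the values were seen, Tcf7 and Klf2 were lower with anti-PD-L1. These were 2 of the 9 genes, beside 136 of 11992 (1.13%). Tcf7 differed by -1.05 (SE 0.184, adjusted p = 0.00204) and Klf2 by -1.69 (SE 0.404, adjusted p = 0.0301), a 2.08-fold and a 3.23-fold lower level. S1pr1 (-0.98, adjusted p = 0.0589), Ccr7 (-1.23, adjusted p = 0.0663) and Il7r (-0.92, adjusted p = 0.107) did not pass the threshold, and the differences of Satb1, Lef1, Slamf6 and Bach2 were -0.72, -0.44, -0.26 and -0.18. All 12 anti-PD-L1 samples lay under all 6 IgG2b samples for 0 of the 9 genes and for 37 of all genes (0.309%). For Tcf7, the highest anti-PD-L1 sample (2350) was above the lowest Nr2f6-/- IgG2b sample (2173). The call of Tcf7 held without each of the 18 samples in turn, whereas that of Klf2 was lost in 8 of the 18 cases (highest adjusted p = 0.109). In the first library set alone both were called, Tcf7 with -1.12 (adjusted p = 0.00918) and Klf2 with -1.27 (adjusted p = 0.010), but with the library set as a covariate Klf2 was not (-1.27, adjusted p = 0.247).

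**Figure D2:**
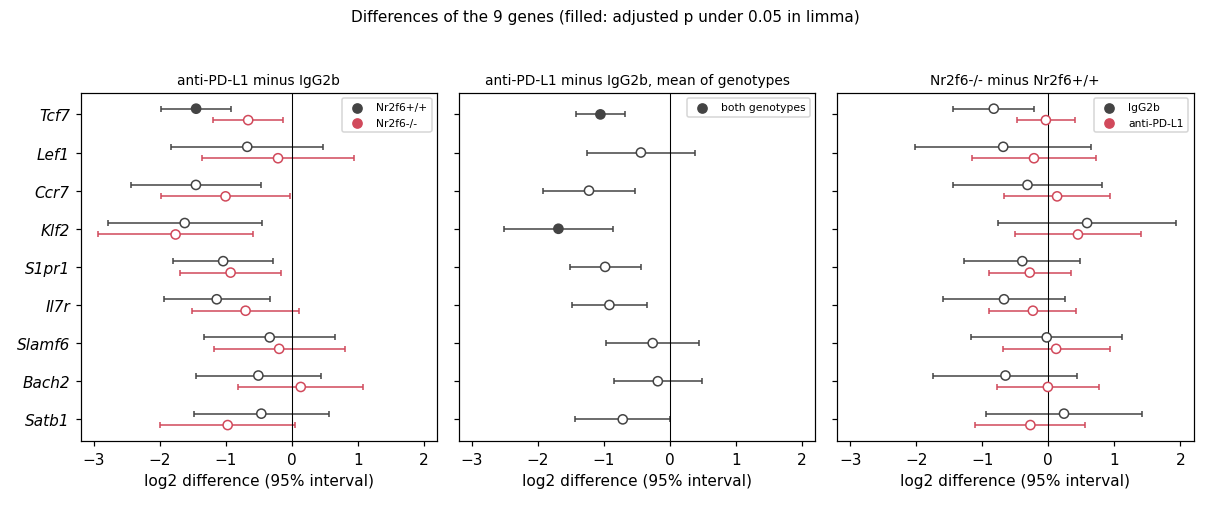
Log2 differences of the 9 genes (horizontal axis) with 95% intervals, for anti-PD-L1 minus IgG2b by genotype, for the mean of both genotypes and for Nr2f6-/- minus Nr2f6+/+ by treatment; filled points passed the threshold in limma. Tcf7 is filled in Nr2f6+/+ mice (-1.45) and Tcf7 and Klf2 in the mean of the genotypes, and no point is filled in the genotype panel.

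Markers of other cells differed with the treatment too. The summed level of 10 macrophage markers was 7684 to 16480 normalized counts in the 6 IgG2b samples and 849 to 5720 in the 12 anti-PD-L1 samples, without overlap, and 6 of the 10, among them Lyz2, Mrc1 and C1qb, were lower over both genotypes (limma). Of these markers Adgre1 was at 0 in 4 samples, Fcgr1 in 4, Mrc1 in 3, and Csf1r in 1. The 4 platelet markers summed to 268 to 2611 with IgG2b and 0 to 350 with anti-PD-L1, of which Ppbp and Gp1bb were at 0 in 15 of 18 samples. The 10 B cell markers summed to 80.1 to 346 and 23.1 to 193, with Cd79a at 0 in all 18 samples and Ms4a1 in 15. The 9 dendritic cell markers summed to 952 to 1192 with IgG2b and 110 to 1449 with anti-PD-L1, and the 7 endothelial markers to 187 to 336 and 85.6 to 431. Overlapping ranges were also found for the 7 melanocyte markers, which the tumor cells express (1156 to 4665 and 736 to 7149), the 3 NK cell markers (264 to 1423 and 270.3 to 1875) and the 5 regulatory T cell markers (7792 to 12439 and 5959 to 18617). The part of these cells in the lower levels of Klf2 and the other genes was not tested.

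The 9 T cell markers summed to 57830 to 83113 normalized counts with IgG2b and 66880 to 103445 with anti-PD-L1, and 0 of 9 passed the threshold over both genotypes. Scaling to the 4 CD3 chain genes moved all genes by -0.32 (log2) over both genotypes. On that scale the differences over both genotypes were -1.38 for Tcf7 (adjusted p = 0.00105) and -2.01 for Klf2 (adjusted p = 0.00839), and Ccr7, S1pr1 and Il7r passed the threshold as well. The ratio of Cd8a to Cd4 was 1.08 to 4.55 with IgG2b and 0.799 to 8.45 with anti-PD-L1, overlapping ranges. The sum over the 9 stem-like and memory genes was 8958 to 15029 with IgG2b and 4659 to 8687 with anti-PD-L1, so that in this sum the treatments did not overlap. This sum weights genes by their level, with Tcf7 at a mean of 4335 of 12855 in Nr2f6+/+ IgG2b samples. Singly, 0 of the 9 genes separated all samples by treatment. The sum over a wider list of 22 naive and memory genes overlapped, with 27916 to 37995 and 26283 to 35716.

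Nr2f6-/- and Nr2f6+/+ mice were compared next, within each treatment. With IgG2b, 0 of the 9 and 0 of all genes tested (0%) passed the threshold in limma, at an unadjusted p under 0.05 for 1 of the 9 and 641 of all genes. In the same comparison edgeR called 0 and DESeq2 88 of all genes, and both called 0 of the 9. The largest difference among the 9 was that of Tcf7, with 2173 to 2977 normalized counts in Nr2f6-/- and 3734 to 5137 in Nr2f6+/+ mice (-0.83, SE 0.301, unadjusted p = 0.0103, adjusted p = 0.846). Some marker sums also separated these genotypes. Macrophage markers summed to 7684 to 10798 in Nr2f6-/- and 12883 to 16480 in Nr2f6+/+ IgG2b samples. In the same order, platelet markers summed to 268 to 703 and 2300 to 2611, and melanocyte markers to 1156 to 2336 and 2495 to 4665. T cell markers summed to 75951 to 83113 and 57830 to 73202, and the other marker sums overlapped. The part of cell content in the genotype differences was not tested.

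Bach2, a repressor of effector genes (chromosome 4, 32238413 to 32586109), had 314, 344 and 367 normalized counts in Nr2f6-/- IgG2b mice and 555, 532 and 520 in Nr2f6+/+ IgG2b mice (-0.65, adjusted p = 0.989). Klf2 went the other way, with 1609 to 2030 against 899 to 1386 (0.59, adjusted p = 0.990). These 3 genes, Tcf7, Bach2 and Klf2, separated completely between the genotypes, beside 1699 of 11992 genes in either direction (14.2%). Klf2 lies 0.937 Mb from Nr2f6 on chromosome 8, so that its difference between genotypes cannot be told apart from that of the segment linked to the targeted allele. Of 79 genes tested within 1.5 Mb of Nr2f6, 2 differed between the genotypes under anti-PD-L1, Tpm4 (-1.74, adjusted p = 8.06e-07) and Mvb12a (-2.0, adjusted p = 0.0257). Over all genes tested, 21 of 11992 (0.175%) differed in that comparison. Klf2 was not among the 2 (0.45, adjusted p = 0.800), and with IgG2b, where Klf2 separated, 0 of all genes passed the threshold (limma).

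With anti-PD-L1, 0 of the 9 genes differed between the genotypes in limma, edgeR or DESeq2, at an unadjusted p under 0.05 for 0 of the 9 and 1167 of all genes, while 21 of all genes passed the threshold (0.175%). The log2 differences lay between -0.28 (S1pr1) and 0.45 (Klf2) with a median of -0.04. Tcf7 had 1046 to 2350 normalized counts in Nr2f6+/+ and 1214 to 1694 in Nr2f6-/- mice, a log2 difference of -0.04 with a 95% interval of -0.47 to 0.40. None of the 9 separated completely, against 71 of all genes (0.592%). The spread of Tcf7 was 621 (SD) in Nr2f6+/+ and 179 in Nr2f6-/- mice.

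The combination of Nr2f6 loss and anti-PD-L1 was then set against Nr2f6+/+ mice with IgG2b. This comparison shares its control samples with PD-L1 blockade in Nr2f6+/+ mice. All 9 genes had a lower fitted level (median -1.17, against -0.12 over all genes), and 1 of the 9, Tcf7, passed the threshold, beside 74 of 11992 (0.617%). Tcf7 went from 4335 ± 723 (SD, n = 3) to 1543 ± 179 (SD, n = 6), a log2 difference of -1.49 (SE 0.261, adjusted p = 0.00618) that missed the threshold without Nr2f6+/+ IgG2b replicate 2 (-1.36, adjusted p = 0.0761). Il7r (-1.37, adjusted p = 0.122), S1pr1 (-1.32, adjusted p = 0.113), Ccr7 (-1.32, adjusted p = 0.287) and Klf2 (-1.17, adjusted p = 0.549) did not pass. Tcf7 and Ccr7 separated completely, 2 of the 9, beside 480 of all genes (4%).

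The difference of the treatment effects between Nr2f6-/- and Nr2f6+/+ mice was tested as an interaction. None of the 9 and 0 of all genes (0%) passed the threshold in limma, at an unadjusted p under 0.05 for 1 of the 9 and 596 of all genes, and edgeR called 0 and DESeq2 76 of all genes with 0 of the 9 in both. The 1 gene was Tcf7, for which anti-PD-L1 went with a log2 difference of -1.45 in Nr2f6+/+ and -0.66 in Nr2f6-/- mice, a difference of 0.79 (SE 0.369, 95% interval 0.04 to 1.54, adjusted p = 0.974). For Klf2 the interaction was -0.14 with an interval of -1.79 to 1.51, which leaves room for effects in either direction. The order of the group means of Tcf7 was 4335 (Nr2f6+/+ IgG2b), 2450 (Nr2f6-/- IgG2b), 1672 (Nr2f6+/+ anti-PD-L1) and 1543 (Nr2f6-/- anti-PD-L1), and the last 2 did not differ beyond their spread. The samples of the middle 2 overlapped, and their difference was not tested.

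Slamf6, Satb1 and Lef1 passed the threshold in none of these comparisons, and in each their samples overlapped between the groups. Slamf6 (chromosome 1, 171917458 to 171948958) had group means of 737, 732, 621 and 683 normalized counts in Nr2f6+/+ IgG2b, Nr2f6-/- IgG2b, Nr2f6+/+ anti-PD-L1 and Nr2f6-/- anti-PD-L1, with SDs of 272 to 299. Satb1 (chromosome 17, 51736187 to 51833290) ranged from 676 to 1113 over the 6 IgG2b samples and from 134 to 1110 over the 12 anti-PD-L1 samples. Lef1 (chromosome 3, 131110297 to 131224357) ranged from 145 to 688 with IgG2b and from 130 to 878 with anti-PD-L1. Its highest sample was Nr2f6+/+ anti-PD-L1 replicate 5, in which Bach2 had 182 normalized counts.

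**Figure D3:**
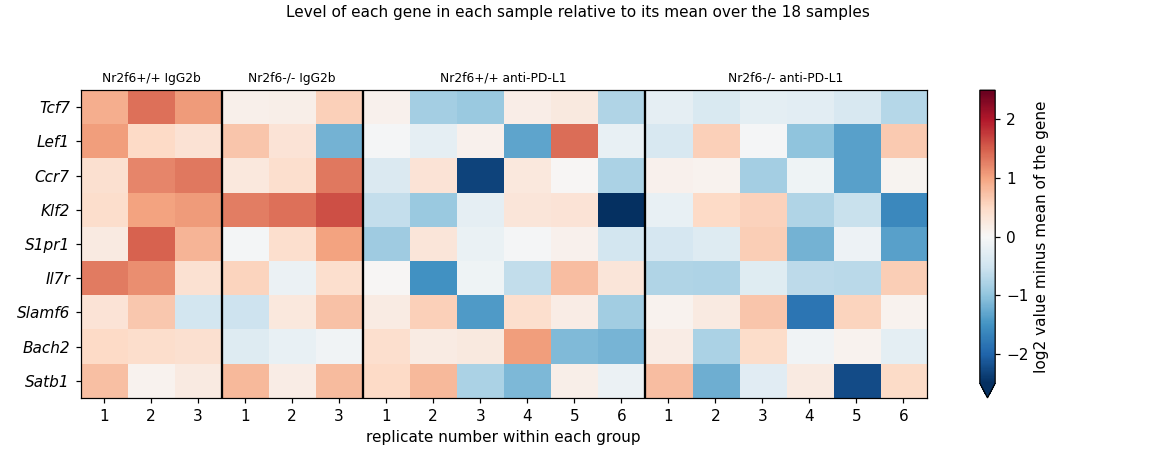
Log2 value of each gene (rows) in each of the 18 samples (columns, by group and replicate number) minus the gene's mean over the 18 samples; red is above and blue below that mean. Tcf7, Ccr7 and Klf2 are mostly red in the IgG2b samples, and the lowest value of Klf2 is that of Nr2f6+/+ anti-PD-L1 replicate 6 (53.2 normalized counts).

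Once the group means were taken out, the 9 genes did not form 1 block over the 18 samples. Over their 36 pairs Pearson's r of the group-centred log2 values had a median of 0.09 and was above 0 for 20. It was highest for Tcf7 with Klf2 (0.55), S1pr1 with Slamf6 (0.54) and Klf2 with S1pr1 (0.49) and lowest for Lef1 with Bach2 (-0.56) and Il7r with Bach2 (-0.43). Of the 11983 other genes tested, those most like Tcf7 by this measure were Lhfp (r = 0.89), Tbxas1 (0.83) and B430306N03Rik (0.82), all with means of 27.0 to 48.2 normalized counts. Those most like Klf2 were Dnajb2 (0.88), Kntc1 (0.87) and Tfcp2 (0.84), and the top gene was Sirt7 for S1pr1 (0.86), RP23-110C17.2 for Ccr7 (0.85), Zfp182 for Il7r (0.82), Lsr for Slamf6 (0.89), 3110001I22Rik for Bach2 (0.85), Ern1 for Satb1 (0.90) and 2310047M10Rik for Lef1 (0.80). The points share libraries, and with this many genes searched the values are descriptions only.

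Further genes of naive and memory T cells, 22 in a list, were examined beside the 9. The list was written with earlier results of these data known. In Nr2f6+/+ mice 18 of the 22 had a lower fitted level with anti-PD-L1 (median -0.35), beside 57.3% of all genes tested. Of the 22, 0 passed the threshold (limma). The largest differences were those of Klf3, a relative of Klf2, with means of 898 with IgG2b and 299 with anti-PD-L1 (-1.73, adjusted p = 0.325), and of Il6ra, a subunit of the IL-6 receptor (-1.63, adjusted p = 0.837). In Nr2f6-/- mice 12 of the 22 were lower (median -0.22), near the share of all genes tested (52.6%). Of the 22, 0 passed, and Il6ra (-3.41, adjusted p = 0.262) and Igfbp4 (-2.40, adjusted p = 0.167) differed most. Igfbp4, which encodes an insulin-like growth factor binding protein found in naive T cells, passed over both genotypes (mean 631 with IgG2b, 227 with anti-PD-L1, -1.89, adjusted p = 0.0438) and in the combination (924 against 80.7, -3.79, adjusted p = 0.00698). It was the 1 gene of the 22 that passed in each of these comparisons, and 0 of the 22 differed between the genotypes within a treatment, where Bcl2 with IgG2b (-1.56, adjusted p = 0.846) and Igfbp4 with anti-PD-L1 (-2.41, adjusted p = 0.0634) differed most, each with Cxcr5, the follicular homing receptor, next (-1.42 and -1.77).

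Of 22 effector and exhaustion genes tested, 16 had a higher fitted level with anti-PD-L1 in Nr2f6+/+ and 17 in Nr2f6-/- mice, with medians of 0.43 and 0.44. Over all genes tested the medians were -0.10 and -0.04. Scaling to the CD3 chain genes moved all genes by -0.33 and -0.31 in these comparisons, which takes up most of the 0.43 and 0.44. The values of this list are given without that scaling. In Nr2f6+/+ mice 0 of the 22 passed the threshold, and Prf1, which encodes perforin, had means of 328 and 999 (1.58, adjusted p = 0.236) and Gzma, a granzyme, 1332 and 2378 (1.08, adjusted p = 0.553). In Nr2f6-/- mice Tox2, a relative of the exhaustion factor TOX, rose from 272 to 1321 (2.30, adjusted p = 0.0134). Over both genotypes Tox2 (1.57, adjusted p = 0.00854) and Prf1 (1.42, adjusted p = 0.0262) rose. Entpd1, which encodes the ectonucleotidase CD39, was higher in Nr2f6-/- than in Nr2f6+/+ mice with anti-PD-L1 (2184 against 933, 1.27, adjusted p = 0.0133). In the combination Entpd1 (1.63, adjusted p = 0.00698), Tox (1.05, adjusted p = 0.00920) and Tox2 (2.35, adjusted p = 0.00920) were higher than in Nr2f6+/+ IgG2b samples. With IgG2b 0 of the 22 differed between genotypes, where Cd101 (-1.94, adjusted p = 0.861) and Entpd1 (1.23, adjusted p = 0.579) differed most.

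Partners and relatives of the 9 genes were counted as a list of 29, of which 22 were tested. In the 6 comparisons of the design 0 of the 22 passed, with 15 of 22 lower in Nr2f6+/+ mice under anti-PD-L1 (median -0.19) and 11 of 22 in Nr2f6-/- mice (median 0.02). Of all genes tested, 57.3% and 52.6% were lower in these comparisons. Klf4, a Krüppel-like factor related to Klf2, was lower over both genotypes (mean 191 with IgG2b, 14.9 with anti-PD-L1, -4.88, adjusted p = 0.0214). It differed by -5.15 in Nr2f6+/+ (adjusted p = 0.260) and -4.61 in Nr2f6-/- mice (adjusted p = 0.270). The macrophage markers were also lower over both genotypes (median -3.06), and the part of other cells in the level of Klf4 was not tested. The sphingosine 1-phosphate receptors S1pr2 and S1pr4 had log2 differences of 0.46 (adjusted p = 0.717) and 0.28 (adjusted p = 0.638) over both genotypes, beside -0.98 for S1pr1. Tle1, a corepressor that binds TCF factors, had means of 94.0 with IgG2b and 2.23 with anti-PD-L1 in Nr2f6+/+ mice (-3.66, adjusted p = 0.586). The mean of 2.23 is under the floor of 2.46 to 3.64. In Nr2f6-/- mice the means of Tle1 were 4.08 with IgG2b and 3.14 with anti-PD-L1. Tle1 thus passed the filter only through the Nr2f6+/+ IgG2b group, and the filter favours differences from that group. Tcf7l2, a relative of Tcf7, had 109 and 9.83 in Nr2f6-/- mice (-4.14, adjusted p = 0.457). Between the genotypes, Tle1 (-3.34, adjusted p = 0.937) and Tcf7l2 (2.47, adjusted p = 0.989) differed most with IgG2b, and S1pr5 (2.55, adjusted p = 0.538) and Bach1 (-1.65, adjusted p = 0.564) with anti-PD-L1. S1pr5 had means of 33.3 in Nr2f6-/- and 0 in Nr2f6+/+ anti-PD-L1 samples. With IgG2b its means were 4.13 and 5.53, so that it passed the filter only through the group where it was high. In the interaction 0 genes of the 3 lists passed (limma).

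**Figure D4:**
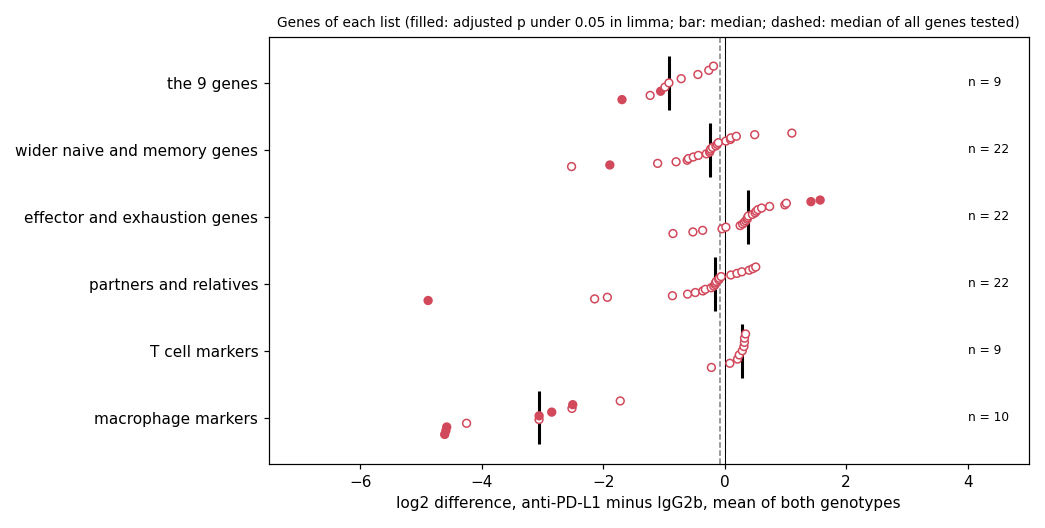
Log2 differences of anti-PD-L1 minus IgG2b averaged over both genotypes (horizontal axis) for the genes tested of each list (rows); each point is a gene, filled where the adjusted p was under 0.05, the black bar is the list's median and the dashed line the median of all genes tested (-0.07). The 9 genes all lie below 0 (median -0.92), most effector and exhaustion genes above 0 (median 0.38) and all 10 macrophage markers below 0 (median -3.06).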

How the data were processed

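RNA of CD3+ T cells from B16-OVA tumors was measured in 18 samples with the QuantSeq 3′ mRNA kit on an Ion Torrent Proton instrument. Upstream, the authors removed adapters (Cutadapt) and poor bases (Trimmomatic), discarded reads below 22 nucleotides, aligned the rest to mm10 in 2 steps (STAR, then Bowtie2) and used HTSeq-count for counts per gene. They deposited a signal for each gene and sample, namely reads over a size factor of that sample (called normalized counts here). Dividing by the smallest step gave whole reads for 100% of the values. The annotation, strand setting and versions are not given in the sources used here, so overlapping genes are uncertain.

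The members and gene lists were chosen with earlier results of these data known. Genes with a mean of at least 10 were tested on log2(normalized count + 1), which understates the change of low genes, with limma 3.58.1 (R 4.3.3, eBayes with trend), 1 model of the 4 groups over 18 samples, two-sided, adjusted by the Benjamini-Hochberg method over 11992 genes at a threshold of 0.05. This test was used because the deposited unit is not a count. The labels do not say whether a sample is 1 mouse, so p-values measure the spread between these samples. Named were the 9 genes, Nr2f6, per list and comparison up to 5 genes past the threshold or else the 2 of largest difference, and the 3 most like genes per member. The S1pr relatives, Tpm4 and Mvb12a and the markers named were chosen after their values were seen. Where replicate numbers were shared between groups, same-numbered samples did not deviate together (21 pairs, r -0.03 to 0.04). Alternatives were other pseudocounts (0.5 and 10), other filters (none, or a mean of 50), 3 scalings, the library set as a covariate or alone, a replicate block, sample weights, fewer groups, leaving out each sample, and edgeR 4.0.16 or DESeq2 1.42.0 on the recovered reads. The 95% intervals come from the limma fit and reflect the spread between samples, and the floor of 3 reads covers counting error only. The script was tested on simulated data. No columns were left out, whereas a figure legend of the paper gives fewer samples for each anti-PD-L1 group than were deposited. Single values of 2 markers of other cells are not reported here.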

Additional observations from a re-analysis of the deposited data

Results flagged for a closer look

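In the groups of 6 samples, 4 of 18 combinations of a gene and a group held a sample whose gap to its nearest neighbour, as a share of the group's range on the log2 scale, was above Dixon's critical value of 0.625. Chance alone flags about 1 in 20 such groups. Tcf7 had 1214 normalized counts in Nr2f6-/- anti-PD-L1 replicate 6, under the 1501 to 1694 of the other 5. Il7r had 1270 in the same sample, above 487 to 675. Klf2 had 53.2 in Nr2f6+/+ anti-PD-L1 replicate 6, under 348 to 838. Slamf6 had 174 in Nr2f6-/- anti-PD-L1 replicate 4, under 652 to 990. Without Nr2f6+/+ anti-PD-L1 replicate 6 the difference of Klf2 over both genotypes was -1.41 (limma, adjusted p = 0.00995), and its genotype difference under anti-PD-L1 was -0.12 in place of 0.45. The cause of these values was not tested.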

How the results depend on the processing

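Tcf7 kept its lower level under PD-L1 blockade in Nr2f6+/+ mice in all 23 alternatives (-1.78 to -1.32). The count of called genes there went from 1 to 0 when only the compared groups were fitted, and was 0 to 1 when each sample was left out in turn. In the combination it was 3 after scaling to the CD3 genes and with sample weights (Tcf7, S1pr1 and Il7r), 2 with the replicate block (Tcf7 and Il7r) and 0 to 2 on leaving out samples. Over both genotypes it was 5 after scaling to the CD3 genes and with sample weights, 4 with a pseudocount of 10 and with DESeq2, 1 without a filter, with the library set as a covariate and with the replicate block, and 1 to 3 on leaving out samples. The block changed no other call. The median of the 9 genes moved after scaling to the CD3 genes to -1.37 (Nr2f6+/+ blockade) and -1.72 (combination). In the combination it was -0.75 with the library set as a covariate or the replicate block, and -0.60 in the first library set. Between genotypes under anti-PD-L1 it was -0.04 over both sets, 0.20 in the first set, -0.30 in the second, -0.26 after scaling to the CD3 genes and -0.19 to 0.071 on leaving out samples.

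Of 1602 alternative values of the 9 genes and comparisons, 58 changed sign, all of differences that were not called. Under blockade in Nr2f6-/- mice, Lef1 was 0.10 and Slamf6 0.17 in the first library set, and Bach2 was -0.18 after CD3 scaling. On leaving out samples, Lef1 was -0.78 to 0.17 and Slamf6 -0.53 to 0.17. With IgG2b, the genotype difference of Slamf6 was 0.068 with sample weights and -0.35 to 0.31 on leaving out samples. Under anti-PD-L1, the genotype differences in the first set were 0.27 (Tcf7), 0.10 (Lef1) and 0.20 (S1pr1). In the second set they were -0.30 (Ccr7), -0.30 (Slamf6) and 0.32 (Bach2). After CD3 scaling Ccr7 was -0.088 and Slamf6 -0.10. Bach2 was 0.021 after quantile normalization, 0.0100 scaled to the same total and 0.050 with sample weights. On leaving out samples, these differences were -0.15 to 0.079 (Tcf7), -0.47 to 0.071 (Lef1), -0.24 to 0.34 (Ccr7), -0.12 to 0.70 (Klf2), -0.13 to 0.48 (Slamf6), -0.23 to 0.22 (Bach2) and -0.50 to 0.10 (Satb1). In the combination, Slamf6 was 0.15 in the first set and -0.54 to 0.14 on leaving out samples. In the interaction, Klf2 was 0.29 in the first set and 0.018 with sample weights. On leaving out samples, the interaction was -0.70 to 0.12 (Klf2), -0.11 to 0.84 (Lef1), -0.20 to 0.43 (S1pr1) and -0.20 to 0.50 (Slamf6). The cause of these changes was not tested.

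Over all genes, DESeq2 called 94, 230, 88, 184, 177, 76 and 333 genes where limma called 29, 39, 0, 21, 74, 0 and 136 (Nr2f6+/+ and Nr2f6-/- blockade, genotype with IgG2b and with anti-PD-L1, combination, interaction, both genotypes). The range over all alternatives was 6 to 94, 8 to 230, 0 to 88, 0 to 184, 10 to 310, 0 to 76 and 55 to 393. Same-numbered samples showed no shared deviation over all genes tested, which does not exclude a pairing in the design. Depth set little limit here, since the lowest value of the 9 genes was 53.2 normalized counts and the floor at most 3.64.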
